A study of Sus scrofa with 20 samples.

Results

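The SERPIN genes of the pig were examined in backfat and liver of Nanchukmacdon boars by RNA-seq. Every gene of the count table whose Ensembl symbol starts with SERPIN was taken, which gave 29 of 31907 genes. Of these, 28 are reported here, and they were grouped by the clade letter that follows in the symbol. Nanchukmacdon is a Korean pig breed, and both groups were untreated tissue labelled as normal and wild type, from animals that the labels give an age of 22 months. The 10 RNA-seq libraries comprised 5 of backfat, the fat layer under the skin, and 5 of liver, with 1 library per tissue from each of 5 boars numbered 65, 67, 69, 71 and 72. All libraries are of whole tissue, so that fewer cells of a type and less RNA per cell cannot be told apart.

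Serpins are proteins of a common fold. Most of them stop a serine protease by offering it a bait loop, after which inhibitor and protease stay bound and are cleared together. Some carry hormones or assist protein folding in place of inhibition. The liver is the known source of most serpins of blood plasma, which restrain clotting, fibrinolysis and complement, whereas clade B serpins lack a classical signal peptide and act mainly inside cells.

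Levels are given in CPM, the counts of a gene scaled to a common library total with TMM factors, and log2 fold changes are backfat minus liver from edgeR's quasi-likelihood test, so that a positive value is a higher level in backfat. A gene was called at a Benjamini-Hochberg adjusted p (FDR) of at most 0.05 over all genes tested and a difference of 2 or more on the log2 scale. Libraries held between 43820042 and 61772737 counts. Sums of marker genes are in CPM without TMM factors. Those of adipocyte markers lay between 11053 and 17653 CPM in backfat and between 9.62 and 11.3 CPM in liver. Summed hepatocyte markers were higher in every liver than in any backfat. A pair of libraries stood apart. The share of counts from mitochondrially encoded genes was 44.5% in liver 67 against 6.38 to 20.2% elsewhere, and its hepatocyte markers summed to 23338 CPM against at least 73085 CPM in the other livers. Backfat 69 had 738 CPM of hepatocyte markers against 201 to 295 CPM in the other backfat libraries. Results that rest on these libraries are given with and without them.

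The 28 genes comprised 7 of clade A, 11 of clade B, 2 each of clades E, F and I, and 1 each of clades C, D, G and H. Of these, 21 passed the filter on low counts. The 7 that did not were SERPINA12, SERPINB2, SERPINB5, SERPINB12, SERPINB13, SERPINE3 and SERPINI2. SERPINB12 and SERPINB13 had 0 counts in all libraries, which allows a level of up to 0.00916 CPM over the backfat libraries and 0.0156 CPM over the liver libraries, a limit that covers counting error only. SERPINE3 had 17 counts over all backfat libraries and 31 over all liver libraries. SERPINA12, known as vaspin and described in adipose tissue of other species, had 1 count in backfat and 0 in liver.

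The promoter stretches of SERPINA6, SERPINA1 and SERPINH1 are shown because they are upstream of genes on opposite sides of the comparison. They were read from RefSeq Sscrofa11.1, the build of the count table, 5′ to 3′ in the direction of the gene, and each ends at the base before the gene's start. They lie at chr7:115554537-115554716 (minus strand), chr7:115616916-115617095 (minus strand) and chr9:9782759-9782938 (plus strand). Capitals mark the letters of a searched motif, in either direction.
SERPINA6: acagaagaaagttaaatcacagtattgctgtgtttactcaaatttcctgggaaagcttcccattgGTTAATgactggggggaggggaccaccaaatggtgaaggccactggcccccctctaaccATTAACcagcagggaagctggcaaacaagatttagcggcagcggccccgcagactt
SERPINA1: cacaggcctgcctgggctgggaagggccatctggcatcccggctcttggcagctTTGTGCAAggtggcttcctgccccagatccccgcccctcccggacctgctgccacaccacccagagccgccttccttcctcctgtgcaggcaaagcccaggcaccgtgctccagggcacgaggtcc
SERPINH1: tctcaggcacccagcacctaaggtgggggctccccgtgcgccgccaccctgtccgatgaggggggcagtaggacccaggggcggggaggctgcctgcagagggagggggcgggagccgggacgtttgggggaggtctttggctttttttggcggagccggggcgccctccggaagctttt
The letters searched on both strands of the 250 bases before the start of a RefSeq transcript were GTTAAT, an arm of the palindromic site of the hepatocyte factor HNF1, TTGCNNAA, the core of a C/EBP site, TATAAA, the TATA box, and GAANNTTC, a pair of units of the heat shock element. They were found in 5.67%, 7.76%, 9.56% and 5.2% of 19531 promoters. Among the 8 promoters searched of genes called higher in liver, GTTAAT occurred in SERPINA6 and SERPINA7, TTGCNNAA in SERPINA1 and SERPINA7, and TATAAA in SERPINA7. Those of SERPINA5, SERPINA11, SERPIND1, SERPINF2 and SERPING1 held none of the searched letters. The stretches shown for SERPINA6 and SERPINA1 are thus from the smaller part with a match. The SERPINA6 stretch holds GTTAAT from base 115 before the start and its reverse complement from base 56. None of the searched letters was in the window of SERPINH1 or SERPINB11. The letters also occurred in genes that were not called or not tested: GTTAAT in SERPINB2 and SERPINB10, TTGCNNAA in SERPINB2 and SERPINE3, TATAAA in SERPINB5, SERPINB12 and SERPINB13, and GAANNTTC in SERPINE2. Of the 28 symbols, 24 are also in RefSeq, and SERPINA4, SERPINA12, SERPINB6 and SERPINB8 are absent under these names. The windows of SERPINA7, SERPING1 and SERPINF1 overlap the RefSeq gene, which extends further upstream than the start of the transcript used. A match is a run of letters and does not show that a factor binds.

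Of the 21 genes tested, 3 were higher in backfat, namely SERPINH1, SERPINB8 and SERPINB11, and 10 were higher in liver, namely SERPINA1, SERPINA4, SERPINA5, SERPINA6, SERPINA7, SERPINA11, SERPINC1, SERPIND1, SERPINF2 and SERPING1. Among all 16275 genes tested, 22.3% were called, 11.1% higher in backfat and 11.2% higher in liver. The clade A genes tested and SERPIND1 passed the filter on low counts through liver alone, and SERPINB11 through backfat alone. The direction of their calls was thus largely set by the filter. When libraries were scaled by their size only, 2874 of all genes were called higher in backfat and 1340 higher in liver, against 1814 and 1819 with TMM. That scaling moved the median of all genes by 0.71 on the log2 scale, and the SERPIN genes called were the same. The median log2 fold change of the 21 genes was -1.42, and that of all genes was 0.00014. The tissues did not overlap in 14 of the 21 genes, against 42.6% of all genes. Backfat lay above liver in 3 of the 14, SERPINH1, SERPINB8 and SERPINB11, and liver lay above backfat in 11, against 22.9% and 19.7% of all genes. All 13 called genes were among these 14, so that the direction of the fit in 5 of 5 boars follows from the lack of overlap. The 28 genes together took 0.287 to 0.380% of the counts of backfat libraries and 0.409 to 1.37% of those of liver libraries, or 0.942 to 1.37% without liver 67.

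**Figure D1:**
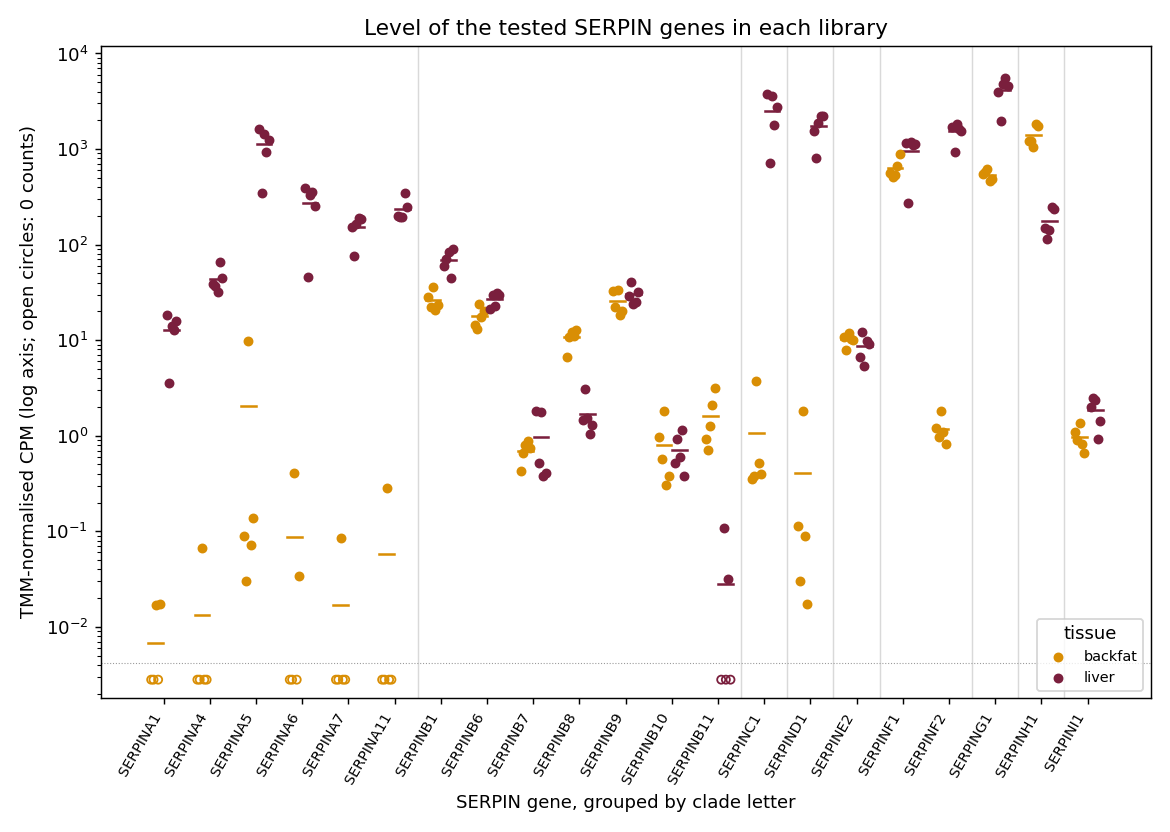
Level of each of the 21 tested SERPIN genes in TMM-normalised CPM on a log axis, with 1 point per library, lines at the tissue means and open circles for libraries with 0 counts. For the 6 clade A genes, SERPINC1, SERPIND1 and SERPINF2 every liver point sits above every backfat point, and for 7 of these 9 genes the highest backfat point is set apart from the rest.

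**Figure D2:**
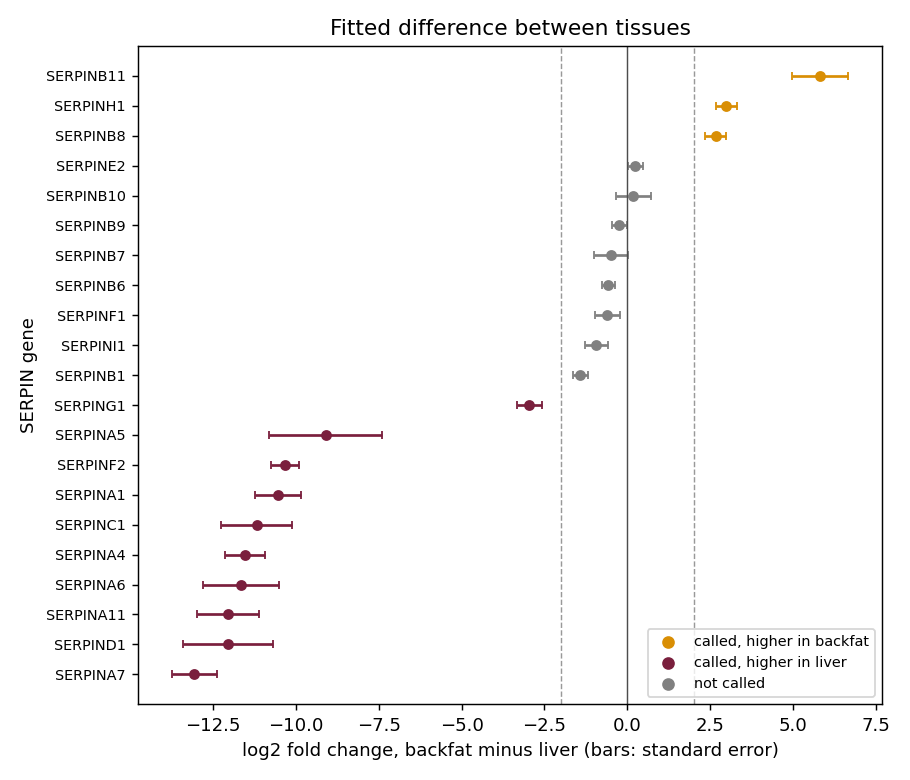
Log2 fold change of backfat minus liver for the 21 genes, with bars of 1 standard error and dashed lines at the fold needed for a call. The genes called higher in liver run from SERPING1 at -2.96 to SERPINA7 at -13.07, and those called higher in backfat from SERPINB8 at 2.67 to SERPINB11 at 5.81. Without backfat 69 the lowest value was that of SERPINA11, at -16.56, which rests on 0 counts in backfat and depends on the prior count.

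Inhibitors of clotting were among the most abundant serpins of liver and were scarce in backfat. SERPINC1 encodes antithrombin, the main plasma inhibitor of thrombin and factor Xa. In backfat of boars 65, 67, 69, 71 and 72 it stood at 0.350, 0.381, 3.73, 0.523 and 0.395 CPM, and in liver at 3732, 718, 3589, 1766 and 2759 CPM. The tissues were far from overlapping, the lowest liver was 67 and the highest backfat was 69. The log2 fold change was -11.19 (SE 1.07, FDR 2.45e-06), and without backfat 69 it was -12.57. SERPIND1 encodes heparin cofactor II, which also inhibits thrombin, and lies at chr14:50427121-50436470. It stood at 0.113, 0.0305, 1.80, 0.0901 and 0.0172 CPM in backfat and at 1553, 802, 1893, 2236 and 2228 CPM in liver. Boar 69 again gave the highest backfat value, and the log2 fold change was -12.06 (SE 1.36, FDR 1.00e-05) with it and -14.64 without it.

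SERPINA5 encodes the protein C inhibitor, which acts on activated protein C and on plasminogen activators. It stood at 0.0902, 0.0305, 9.86, 0.0721 and 0.137 CPM in backfat and at 1639, 346, 1451, 935 and 1239 CPM in liver. Of its 608 counts in backfat, 586 came from boar 69. The log2 fold change of -9.11 (SE 1.71, FDR 0.000627) became -13.69 when backfat 69 was left out. SERPINF2, which encodes alpha2-antiplasmin, the inhibitor of plasmin, differed from these in that no backfat library was set apart. It stood at 1.22, 0.961, 1.80, 1.08 and 0.823 CPM in backfat and at 1709, 934, 1810, 1639.5 and 1555 CPM in liver, with a log2 fold change of -10.34 (SE 0.43, FDR 3.75e-09).

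The carrier and protease inhibitor genes of clade A were all higher in liver, 6 of 6 tested, where 11.2% of all genes were. All 6 passed the filter on low counts through liver alone, which largely fixed this outcome. Their log2 fold changes lay between -9.11 and -13.07, with a median of -11.60. Without backfat 69 they lay between -11.01 and -16.56, with a median of -14.43. SERPINA6 encodes the corticosteroid-binding globulin, which carries cortisol in blood. In liver it stood at 389, 46.3, 331, 355 and 255 CPM, and in backfat at 0, 0, 0.404, 0 and 0.0343 CPM. The lowest liver, boar 67, was well below the other 4 and still above every backfat library. SERPINA7 encodes the thyroxine-binding globulin, is X-linked in pig (chrX:86708624-86714324) and had a log2 fold change of -13.07 (SE 0.67, FDR 1.75e-08), or -15.93 without backfat 69. It stood at 151, 76.3, 166, 188 and 184 CPM in liver and had counts in backfat only in boar 69, at 0.0841 CPM.

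SERPINA11, a member whose function is little known, stood at 200, 194, 195, 347 and 246 CPM in liver and had counts in backfat only in boar 69, at 0.286 CPM. SERPINA4, which encodes kallistatin, an inhibitor of tissue kallikrein, stood at 38.3, 36.6, 32.3, 66.5 and 44.4 CPM in liver and in backfat only in boar 69, at 0.0673 CPM. Liver 67 was not the lowest for SERPINA4. Since fitted folds of genes with 0 counts depend on the prior count, bounds were computed over the other 4 backfat libraries, in which SERPINA4, SERPINA7 and SERPINA11 had 0 counts. Taking 3 counts over these libraries as the most that 0 allows, the mean of all livers was at least 3896-fold higher for SERPINA4, 13667-fold for SERPINA7 and 21135-fold for SERPINA11. These bounds cover counting error only and do not hold for boar 69. Its backfat held 0.208%, 0.0508% and 0.147% of the level of its liver for SERPINA4, SERPINA7 and SERPINA11.

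SERPINA1 encodes alpha1-antitrypsin, the plasma inhibitor of neutrophil elastase. Its level was low for this gene set, at 18.1, 3.54, 14.0, 12.7 and 16 CPM in liver and 1 count in each of backfat 69 and 72, with a log2 fold change of -10.55 (SE 0.70, FDR 1.07e-07). The count table gives it 4895 bases of exon and the RefSeq gene of that symbol has 1471. Of the 50-base windows of its RefSeq exons, 4.32% occur exactly elsewhere in the genome, against 0% for the other 23 genes checked, and reads that mapped to several places were not counted. RefSeq places SERPINA1, SERPINA5, SERPINA6 and SERPINA11 within chr7:115535552-115987392, with 15 protein-coding genes of which 10 carry no SERPIN symbol and were not analysed here. The level of SERPINA1 is uncertain, and the part of the gene models, the repeated windows and the uncounted reads in it was not tested.

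SERPING1, the C1 inhibitor of complement and of the contact system, was abundant in both tissues and higher in liver. It lies at chr2:13324160-13338826. It stood at 545, 571, 617, 459 and 483 CPM in backfat (mean 535, SD 64.4, n = 5) and at 3926, 1965, 4740, 5525 and 4595 CPM in liver (mean 4150, SD 1347, n = 5). The tissues did not overlap, and liver exceeded backfat by 3.44-fold in boar 67 and by 7.2- to 12-fold in the other boars. The log2 fold change was -2.96 (SE 0.37, FDR 2.33e-05). SERPINF1, which encodes PEDF, a secreted serpin that does not inhibit proteases and is known as an adipocyte product, was also abundant in both. It stood at 561, 516, 535, 667 and 897 CPM in backfat and at 1150.2, 275, 1179, 1095 and 1128 CPM in liver. Liver exceeded backfat in every boar but 67, whose liver was set apart low. SERPINF1 was not called, at -0.60 (SE 0.37, FDR 0.189), and without liver 67 the value was -0.87 with an FDR of 0.00967, still below the fold needed. SERPINF2 and SERPINF1 are neighbours on chromosome 12, at chr12:47934551-47942283 and chr12:47949004-47959471, and the difference between their fold changes was not tested.

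SERPINH1 was the most abundant serpin of backfat per length of exon and was higher there than in liver. It encodes HSP47, a chaperone of the endoplasmic reticulum that binds folding procollagen and inhibits no protease, and lies at chr9:9782939-9794485. It stood at 1219, 1209, 1044, 1813 and 1745 CPM in backfat (mean 1406, SD 348, n = 5) and at 149, 114, 143, 246 and 235 CPM in liver (mean 177, SD 59.2, n = 5). The tissues did not overlap, and backfat exceeded liver by 7.29- to 10.6-fold within each boar. The log2 fold change was 2.99 (SE 0.32, FDR 6.47e-06). The summed fibroblast markers, which include COL1A1, lay between 18304 and 38606 CPM in backfat and between 210 and 458 CPM in liver. These sums carry no TMM factors, and the part of fibroblasts in the SERPINH1 result was not tested.

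SERPINE2, which encodes protease nexin and inhibits thrombin and plasminogen activators at cell surfaces, stood at 7.90 to 12 CPM in backfat and 5.35 to 12.1 CPM in liver, and was not called (log2 fold change 0.25, SE 0.23, FDR 0.389).

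**Figure D3:**
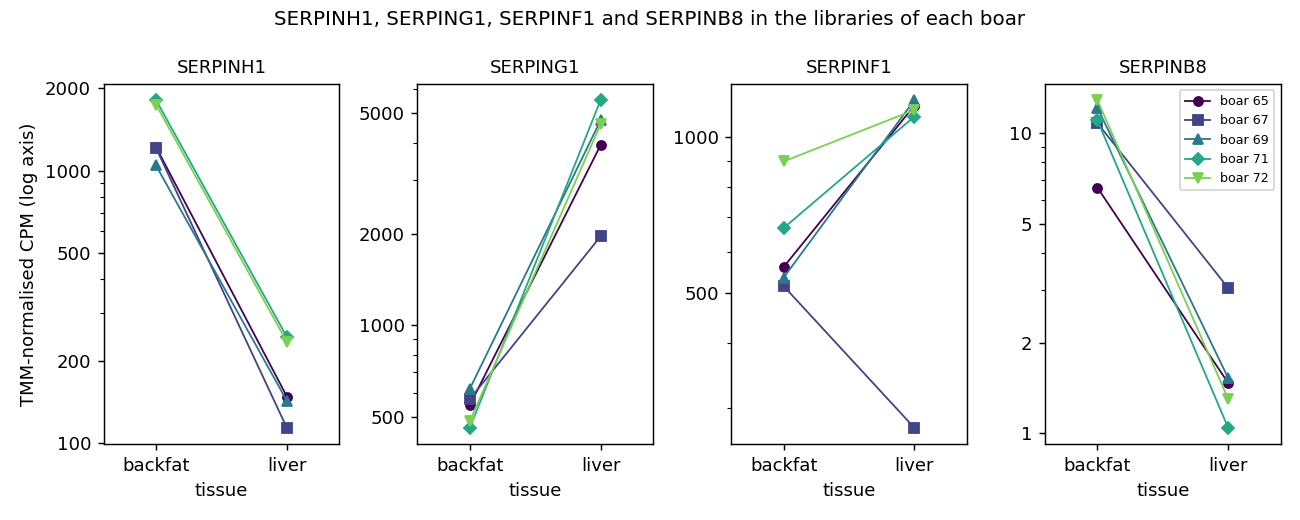
TMM-normalised CPM, on log axes that differ between panels, of SERPINH1, SERPING1, SERPINF1 and SERPINB8 in backfat and liver, with the libraries of each boar joined by a line. The lines of SERPINH1 fall by 7.29- to 10.6-fold, those of SERPINB8 by 3.55- to 10.6-fold, those of SERPING1 rise, and only boar 67 falls from backfat to liver for SERPINF1.

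Among the intracellular serpins of clade B, 2 of 7 tested were higher in backfat, where 11.1% of all genes were, none was higher in liver, and 5 were not called, with a median log2 fold change of -0.24. SERPINB8, an inhibitor of furin-like and other proteases, stood at 6.60, 10.8, 12.2, 11.1 and 12.9 CPM in backfat and at 1.47, 3.05, 1.53, 1.04 and 1.30 CPM in liver. The tissues did not overlap, liver 67 was set apart high, and the log2 fold change was 2.67 (SE 0.32, FDR 1.66e-05). Without liver 67 it was 2.96. SERPINB11 stood at 0.702 to 3.12 CPM in backfat and had 4 counts at most in any liver library, with a log2 fold change of 5.81 (SE 0.85, FDR 8.71e-05) that became 7.49 without liver 67.

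SERPINB1, an inhibitor of neutrophil elastase and related proteases that is known from leukocytes and also described as a product of liver, stood at 28.5, 22.2, 35.9, 20.6 and 23.4 CPM in backfat and at 59.7, 70.3, 83.7, 45.2 and 89.6 CPM in liver. The tissues did not overlap, and the difference passed the FDR but not the fold, at -1.42 (SE 0.22, FDR 0.00014). SERPINB6, an inhibitor of cathepsin G, also passed the FDR alone, at -0.58 (FDR 0.0238), as did SERPINI1, neuroserpin, at -0.94 (FDR 0.0366), and both overlapped between the tissues. Neither pass was stable: SERPINI1 had an FDR of 0.0508 to 0.0899 in 7 of the 10 fits without 1 library, 0.0762 with no filter and 0.593 with library size alone. SERPINB6 had an FDR of 0.0619, 0.0609 and 0.0510 without backfat 65, 67 and 71, and with library size alone it had the opposite sign, at 0.14. At the FDR alone 16 of the 21 genes passed, where 55% of all genes did.

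SERPINB9, the inhibitor of granzyme B in cytotoxic lymphocytes, stood at 18.4 to 33.8 CPM in backfat and 24.1 to 40.9 CPM in liver and was not called, at -0.24 (FDR 0.370). SERPINB7 and SERPINB10 stood below 2 CPM in every library, with values of -0.49 (FDR 0.429) and 0.19 (FDR 0.780), and were not called. Scaled by library size only, SERPINB9, SERPINB7 and SERPINF1 had values of the opposite sign, at 0.50, 0.10 and 0.072, and SERPINB10 had -0.34 without backfat 69. Summed T and NK cell markers overlapped between the tissues, at 19.4 to 66.6 CPM in backfat and 16.1 to 44.7 CPM in liver, as did neutrophil markers at 6.75 to 18.3 and 2.90 to 20.1 CPM. Of the T and NK cell markers 4 of 5 were found by symbol, without GZMB, and of the neutrophil markers 5 of 6. Mast cell markers, of which 3 of 5 were found, lay at 21.2 to 39.5 CPM in backfat and at 4.91 to 19.8 CPM in liver. Keratinocyte markers, of which 4 of 7 were found by symbol, lay at 10.5 to 14.8 CPM in backfat and 7.25 to 11.1 CPM in liver, and KRT1 had 0 counts in every liver library. These sums carry no TMM factors, unlike the SERPIN levels. TMM scaling lowers values in backfat and raises them in liver, so that the ranges and their gaps hold for unscaled sums only. The part of these cell types in the clade B values was not tested.

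The order of levels between genes was taken only per kilobase of exon, with the exon lengths of the count table. RefSeq gives shorter exons for some genes, with 1606 bases against 4666 for SERPINF1 and 1544 against 4514 for SERPINB9. The places of SERPINF1 and SERPINB9 in the order therefore depend on the gene models. The order with RefSeq lengths was not computed. In backfat SERPINH1 led with a mean of 532 CPM per kb, followed by SERPING1 at 263 and SERPINF1 at 136, and the libraries of these 3 genes did not overlap from one to the next. SERPINB1 came next at 11.9, and its libraries overlapped neither those of SERPINF1 nor those of SERPINB9, which followed at 5.64. In liver SERPING1 led at 2036 CPM per kb, before SERPINC1 at 1464, SERPIND1 at 806, SERPINF2 at 597, SERPINA5 at 433 and SERPINF1 at 207. Each of these overlapped the next in the order. SERPINA11, SERPINA7, SERPINA6 and SERPINH1 followed at 119, 111, 104 and 67.1 CPM per kb. SERPING1 and SERPINF1 were thus among the leading genes of both orders, whereas SERPINH1 came first in backfat and below 9 other SERPIN genes in liver.

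For 7 of the 10 genes called higher in liver, the low levels in backfat were concentrated in boar 69. The backfat 69 value of these 7 was set apart from the other 4 backfat libraries, as given above for each. SERPINF2, SERPINA1 and SERPING1 were not set apart. Backfat 69 held 27.7% of the backfat counts of SERPINF2, and SERPINA1 had 1 count there and 1 in backfat 72. Relative to liver 69, backfat 69 held 0.0508% of the level of SERPINA7, 0.0951% of SERPIND1, 0.0994% of SERPINF2, 0.104% of SERPINC1, 0.121% of SERPINA1, 0.122% of SERPINA6, 0.147% of SERPINA11 and 0.208% of SERPINA4. Hepatocyte markers other than APOA1, 6 in number, lay between 0.0832 and 0.127% on the same measure, and APOA1 at 5.32%. SERPINA5 at 0.680% and SERPING1 at 13.0% lay above these 6 markers, as did SERPINA11 and SERPINA4. Only SERPING1 lay above APOA1. Of all genes called higher in liver, 12.3% had a backfat 69 value set apart high. Backfat 69 was the highest backfat for 9 of the 10 SERPIN genes and for 35.6% of all genes called higher in liver. The part of hepatocyte RNA in these values was not tested.

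**Figure D4:**
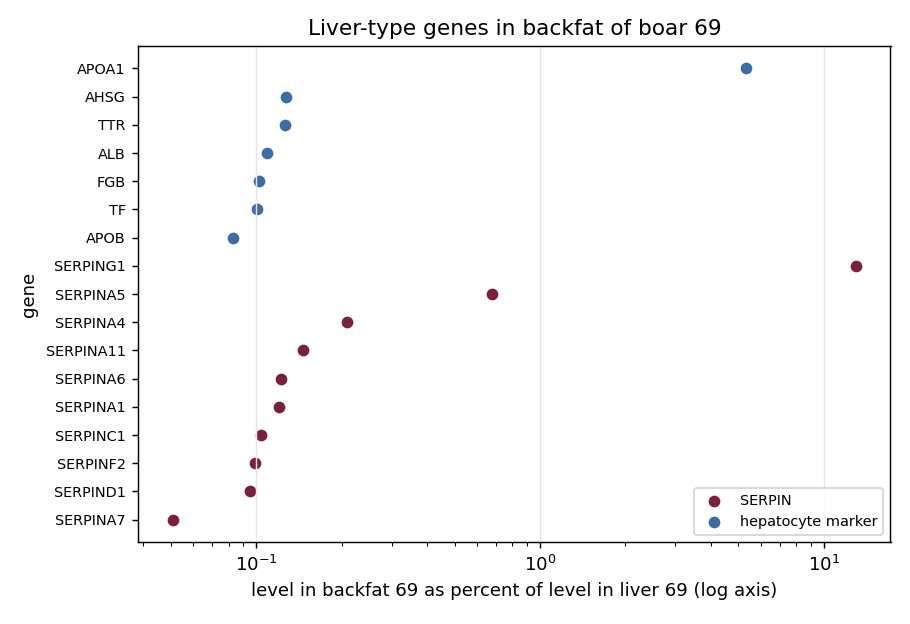
Level in backfat 69 as a percent of the level in liver 69, on a log axis, for the 10 SERPIN genes called higher in liver and 7 hepatocyte markers. Most points of both sets lie between 0.0508 and 0.208%, and SERPINA5, APOA1 and SERPING1 lie to the right at 0.680, 5.32 and 13.0%.

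Liver 67 was the lowest liver for 9 of the 10 genes called higher in liver, with SERPINA4 the exception, against 47.3% of all genes called higher in liver. It was also lowest for SERPINF1 and SERPINH1 and was the highest liver for 5 of the 11 other genes, namely SERPINB8, SERPINB9, SERPINB11, SERPINE2 and SERPINI1. Its level relative to the mean of the other 4 livers was 13.9% for SERPINA6, 24.1% for SERPINF1, 24.2% for SERPINC1 and 41.8% for SERPING1, but 228% for SERPINB8. When liver 67 and backfat 69 were both left out, the same 3 and 10 genes were called.

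The proteases that plasma serpins act on were described from a list of 11 genes of clotting and fibrinolysis. Of these, 9 were higher in liver (F2, F7, F9, F10, F11, F12, KLKB1, PROC and PLG), where 11.2% of all genes were. Another 2 were higher in backfat, where 11.1% of all genes were. The median over the list was -10.29. Thrombin is made from F2, the target of SERPINC1 and SERPIND1, and F2 had a mean of 2191 CPM in liver and 1.67 CPM in backfat. PLG, the precursor of plasmin and thereby the target of SERPINF2, had 2631 CPM in liver and 0.868 CPM in backfat. The 2 genes higher in backfat were PLAT (log2 fold change 3.60, SE 0.39, FDR 7.62e-06) and PLAU (2.35, SE 0.31, FDR 4.03e-05), the plasminogen activators, on which SERPINA5 and SERPINE2 act. Their means in backfat were 35.9 and 27.7 CPM.

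Of the complement proteases, MASP1 and MASP2, targets of SERPING1, were both higher in liver, at -3.96 (SE 0.49) and -5.36 (SE 0.33), and C1R and C1S were not analysed here. Of 9 leukocyte and lysosomal protease entries tested, 1 was higher in liver, close to the 11.2% of all genes, and 8 were not called. GZMA was present under more than 1 Ensembl entry, and CTSG, CMA1 and GZMB were not found by symbol. CTSS at -0.73 (FDR 0.0218) and CTSB at -1.02 (FDR 0.0255) passed the FDR but not the fold. The median of the 9 was -0.17. The gene called was PRTN3, proteinase 3 of neutrophils, at -4.31 (SE 0.93, FDR 0.00174). Its level was low and uneven between livers, with a mean of 3.12 CPM and an SD of 4.33 CPM. Of the receptors listed, LRP1 was not found by symbol. Among 4 receptors and binding partners tested, SORL1 and VLDLR, which take up complexes of serpins with proteases, were higher in backfat at 4.03 and 2.48. VTN, vitronectin, an adhesion protein of plasma and matrix, was higher in liver at -10.71 (SE 0.84, FDR 4.05e-07). PLAUR, the receptor of PLAU, passed the FDR but not the fold, at 1.62. The median of these 4 was 2.05.

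Of 11 genes of collagen and its folding, 4 were higher in backfat with SERPINH1, where 11.1% of all genes were. They were COL1A1 at 5.76, COL1A2 at 5.85, COL3A1 at 6.16 and FKBP10, another procollagen chaperone, at 3.38. The other 7, which hydroxylate prolines and lysines of collagen, were not called, and the median of the list was 1.06. P4HB, a subunit of prolyl hydroxylase that also serves other secreted proteins, had -1.92 (SE 0.34, FDR 0.000365), and P4HA1 and P4HA2, catalytic subunits of the same enzyme, had 1.35 (FDR 0.00112) and 1.06 (FDR 0.00191), so that these 3 passed the FDR but not the fold. AGT, angiotensinogen, which has the serpin fold without the symbol, had means of 383 CPM in backfat and 973 CPM in liver and was not called, at -1.34 (FDR 0.00433).

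**Figure D5:**
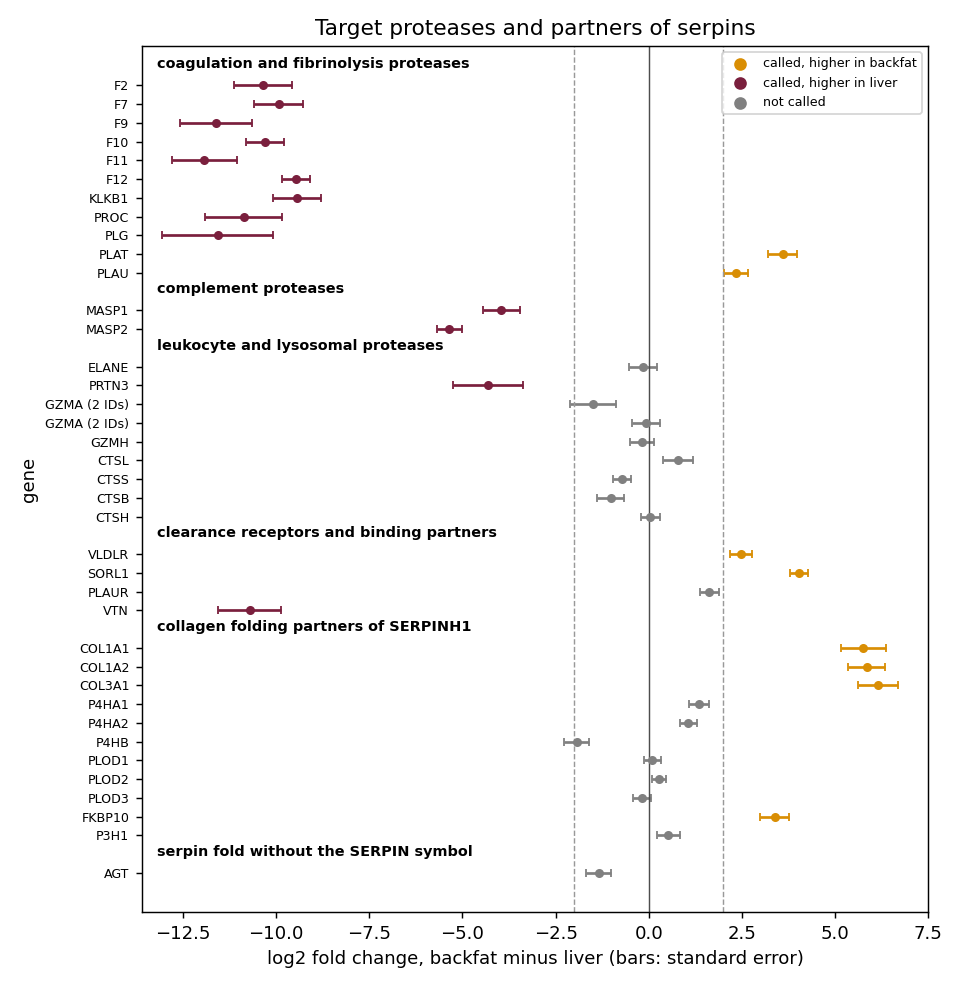
Log2 fold change of backfat minus liver with bars of 1 standard error for the tested genes of the partner lists, with dashed lines at the fold needed for a call. Clotting proteases lie near -10, PLAT and PLAU at 3.60 and 2.35, and the fibrillar collagens between 5.76 and 6.16.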

How the data were processed

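Per the study's methods and the labels, poly(A) RNA was sequenced as paired reads on an Illumina instrument and mapped to Sscrofa11.1 with HISAT2. The authors deposited raw counts per gene made by featureCounts 2.0.1 over the exons of Ensembl release 99, without strand and without reads that mapped or overlapped more than once, so that antisense reads cannot be told apart. Symbols came from the pig Ensembl gene table. The WGBS libraries of the same series were not used here, since their files carry no genomic position. Columns were assigned to a tissue and a boar by their names, since the labels number replicates without naming boars. The study's methods give the boars another age than the labels.

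The test was made with edgeR 4.0.16 in R 4.3.3 (filterByExpr, TMM, quasi-likelihood test with tissue as the only term), where the study used DESeq2, and p-values were adjusted over 16275 genes. Library totals of 43820042 to 61772737 set the precision, and TMM factors were 1.18 to 1.44 in backfat and 0.649 to 0.915 in liver. Standard errors were taken from the fold change and the F statistic. Alternatives were other scalings, DESeq2 1.42.0, other filters, the boar as a block, removal of mitochondrial genes, and leaving out libraries. Both tissues came from the same boars by the column names: correlations of deviations within a boar were 0.0490 to 0.238, the median between different boars was -0.0400, and for boar 69 alone the best match was a library of another boar. In simulated counts of this comparison over 16067 genes, 194 of 200 genes with a log2 change of 3 were recovered, with 3 false calls. No other gene was changed in them, and no boar effect was simulated. The simulation therefore does not cover the scaling or genes near 0 in a tissue. Values in every library are given for genes called with a mean of at least 10 CPM in a tissue and for those that carry a clade comparison. The members, lists and tests were chosen with earlier results of these data known. Levels of marker lists are sums of CPM without TMM factors. A library was set apart by Dixon's criterion for 5 values (0.71). Promoters, positions and exon windows were taken from RefSeq for Sscrofa11.1. Some items covered by the rule and the lists are not reported here. Figures were made with matplotlib.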

Additional observations from a re-analysis of the deposited data

Results flagged for a closer look

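In 9 of 42 groups of 5 libraries, 1 library was set apart from the other 4 by Dixon's criterion, which chance meets in about 1 of 20 groups of normally distributed values. Backfat 69 was set apart high for SERPINA4 at 0.0673 CPM, SERPINA5 at 9.86 CPM, SERPINA6 at 0.404 CPM, SERPINA7 at 0.0841 CPM, SERPINA11 at 0.286 CPM, SERPINC1 at 3.73 CPM and SERPIND1 at 1.80 CPM. For SERPINA4, SERPINA7 and SERPINA11 the other 4 libraries had 0 counts, so that any count in a single library meets the criterion. These 7 groups share that library and are not independent of each other. Liver 67 was set apart high for SERPINB8 at 3.05 CPM and low for SERPINF1 at 275 CPM.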

How the results depend on the processing

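The same 3 SERPIN genes were called for backfat and the same 10 for liver under edgeR with DESeq2's size factors, library size alone, DESeq2, no filter on low counts, the mitochondrial genes removed and each library left out. The exception was a filter of at least 10 counts in every library, which leaves out genes at or near 0 in a tissue: 13 members were then tested, 2 were higher in backfat and 3 in liver, and 1852 of all genes were called. Calls over all genes were otherwise between 3629 with DESeq2's size factors and 5247 with no filter, and leaving out 1 library gave 3716 to 3964. With the boar as a replicate block, which pairs the tissues, 3 and 10 SERPIN genes and 3670 of all genes were called, and no SERPIN call changed. DESeq2 moved the median of all genes by -0.17 and library size alone by 0.71 on the log2 scale.

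Of 370 values of single genes under the alternatives, 363 had the same direction and the same call by FDR and fold together. By the FDR alone, 16 values of 4 uncalled genes changed side: SERPINI1 and SERPINB6 lost it under some alternatives, SERPINE2 passed it with library size alone (FDR 0.00132), and SERPINF1 passed it without liver 67, with or without backfat 69. The other 7 values changed sign, none of them called: with library size alone SERPINB6 was 0.14, SERPINB7 0.10, SERPINB9 0.50 and SERPINF1 0.072, and SERPINB10, which ranged from -0.34 to 0.40 when 1 library was left out, was -0.34 without backfat 69, -0.03 without liver 72 and -0.23 without liver 67 and backfat 69. Leaving out backfat 69 moved the folds of 7 called genes by over 1.5 times, to -12.57 for SERPINC1, -13.69 for SERPINA5, -14.12 for SERPINA4, -14.64 for SERPIND1, -14.75 for SERPINA6, -15.93 for SERPINA7 and -16.56 for SERPINA11. Backfat 69 held between 67.3% of the backfat counts, for SERPINC1, and 100% for SERPINA4, SERPINA7 and SERPINA11. The values of the latter genes without it rest on 0 counts in backfat and depend on the prior count. The cause of the changes of sign and of the high backfat 69 values was not tested. Low counts limit SERPINB7, SERPINB10, SERPINB11 and SERPINI1 and the 7 genes that were not tested.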
